A study of Mus musculus with 2031 samples.

Results

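AST2 is a subtype of astrocyte of the adult mouse brain that the authors defined by clustering single-cell transcriptomes, and the 555 cells that their published list of cells assigns to it were studied here, of 2030 cells with counts and of 1781 cells assigned to any of the 5 astrocyte subtypes AST1 to AST5. Of the AST2 cells 523 were cortical, 240 of them from suspension 1C and the others from 2C, and 32 hippocampal, 10 from 1H and 22 from 2H. All mice were C57BL/6J, untreated, at postnatal day 56. Suspensions 1C and 2C each held the cortex of 1 mouse, and these mice were littermates. Suspensions 1H and 2H each pooled the hippocampi of 4 littermates, from other litters. Effects of region, litter and pooling therefore cannot be told apart. Cells bearing the astrocyte surface antigen ACSA-2 and lacking the oligodendrocyte marker O1 were sorted into 8 plates per suspension, and full-length cDNA was made from each cell with the Smart-seq2 method and external ERCC spike-in RNA.

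Astrocytes take up glutamate and potassium released by neurons, supply neurons with lactate, cholesterol and amino acids, and contact synapses and blood vessels with their processes. Protoplasmic astrocytes of the cortical grey matter are known to hold little of the filament protein Gfap, while hippocampal and white matter astrocytes hold more. AST2 was described by its high Slc7a10 (Asc-1, an exchanger of D-serine, glycine and other small neutral amino acids), Sema4b (a class 4 membrane semaphorin) and Sat1 (the acetylase that controls the breakdown of polyamines), by Unc13c (a Munc13 protein that primes vesicles for release at nerve endings), and by little Agt (angiotensinogen) and Gfap.

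The AST2 cells held 609200 to 2963547 gene counts each (median 1428826), beside a median of 1458411 over all cells. Counts of the AST2 cells of a suspension were summed, giving 353257643, 418823674, 12788974 and 29912828 gene counts for 1C, 2C, 1H and 2H, and so were those of the other typed astrocytes of the same suspension (461, 499, 393 and 428 typed astrocytes in all). Levels are given as CPM, the counts of a sum scaled to a common library size corrected by TMM, and 4 values in a row are always 1C, 2C, 1H and 2H. Levels summed over a list of genes are instead CPM of the library size without that correction. A difference is the fitted log2 ratio of AST2 to the other astrocytes ± its standard error, with the suspension as a block. Because AST2 was found in these very counts, such a difference is a description and carries no p-value. A gene was called higher or lower where its ratio reached 1.284-fold (a natural log ratio of 0.25), had the same sign in all 4 suspensions, and was detected in over 25% of cells of the class where it is higher. Sums of 1H rest on 10 cells, and many of its values are set by a few of them. The other astrocytes were a different mix in each region. In cortex most were AST3 (33.4 and 30.3% of typed astrocytes in 1C and 2C). In hippocampus most were AST1 (68.96 and 64.02% in 1H and 2H), and AST4 made up 10.4 and 11.2%, against at most 0.434% in cortex. Cortical and hippocampal differences, and the rule over all 4 suspensions, therefore set AST2 against different mixes. The part of the mix in single differences was not tested.

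The loci of the 4 markers are given on GRCm38. Slc7a10 (ENSMUSG00000030495.12) lies on chromosome 7 from 35186385 to 35201114 on the plus strand, Sema4b (ENSMUSG00000030539.13) on chromosome 7 from 80186841 to 80226527 on the plus strand, Unc13c (ENSMUSG00000062151.13) on chromosome 9 from 73479422 to 73968966 on the minus strand, and Sat1 (ENSMUSG00000025283.15) on chromosome X from 155213132 to 155216449 on the minus strand. Their promoters, 250 bases before to 50 bases after a RefSeq start (GRCm38.p6), are printed from 5′ to 3′ because these genes stand for AST2 in what follows, with matches to 3 promoter motifs in capitals. The motifs, searched on both strands, were GGGCGG (the GC box), the CCAAT box, and TATAAA (the TATA box). Sema4b has 2 RefSeq starts.

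Slc7a10, chr7:35186135-35186434, plus strand: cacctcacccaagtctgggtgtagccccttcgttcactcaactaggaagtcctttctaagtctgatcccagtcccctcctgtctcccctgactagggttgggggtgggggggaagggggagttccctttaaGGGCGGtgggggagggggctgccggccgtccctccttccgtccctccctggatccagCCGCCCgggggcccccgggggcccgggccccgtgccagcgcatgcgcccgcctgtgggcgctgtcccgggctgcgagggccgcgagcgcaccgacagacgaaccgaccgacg
Sema4b, chr7:80186620-80186919, plus strand: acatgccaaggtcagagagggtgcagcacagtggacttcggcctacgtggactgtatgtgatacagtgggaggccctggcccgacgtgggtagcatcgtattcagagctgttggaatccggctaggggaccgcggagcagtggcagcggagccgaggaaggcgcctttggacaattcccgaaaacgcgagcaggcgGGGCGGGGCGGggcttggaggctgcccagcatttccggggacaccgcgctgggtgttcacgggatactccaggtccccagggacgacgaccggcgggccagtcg
Sema4b, chr7:80198338-80198637, plus strand: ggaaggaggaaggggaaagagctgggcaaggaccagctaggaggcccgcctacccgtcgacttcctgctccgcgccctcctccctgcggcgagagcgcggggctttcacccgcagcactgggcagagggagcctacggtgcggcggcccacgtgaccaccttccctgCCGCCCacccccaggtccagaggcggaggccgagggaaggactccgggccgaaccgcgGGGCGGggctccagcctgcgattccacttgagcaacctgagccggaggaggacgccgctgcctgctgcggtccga
Unc13c, chr9:73968988-73969287, minus strand: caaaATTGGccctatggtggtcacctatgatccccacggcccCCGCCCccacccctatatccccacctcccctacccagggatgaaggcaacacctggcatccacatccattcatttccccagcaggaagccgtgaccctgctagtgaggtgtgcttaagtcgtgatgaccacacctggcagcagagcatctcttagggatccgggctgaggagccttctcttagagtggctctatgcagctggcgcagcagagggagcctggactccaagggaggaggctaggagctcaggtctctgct
Sat1, chrX:155216400-155216699, minus strand: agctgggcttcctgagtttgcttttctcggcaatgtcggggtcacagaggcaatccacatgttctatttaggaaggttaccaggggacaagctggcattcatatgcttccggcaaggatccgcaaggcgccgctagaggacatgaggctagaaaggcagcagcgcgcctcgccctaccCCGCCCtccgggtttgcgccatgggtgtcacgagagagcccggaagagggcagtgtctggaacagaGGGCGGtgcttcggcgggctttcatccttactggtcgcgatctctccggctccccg

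All 5 windows held a GC box, against 35.7% of the 32851 promoters of the same length, and none held TATAAA, against 13.6%. Unc13c was the only marker whose window held CCAAT, as did 37.4% of promoters. Sema4b at its upstream start had 2 GC boxes that overlap. The windows contained 70.7% G and C for Slc7a10, 65.3% and 71.7% for Sema4b, 59.3% for Unc13c and 60.3% for Sat1, with a median of 52.7% over all promoters. These matches describe the letters of the window and no bound factor.

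Of the 4 markers, Slc7a10, Sema4b and Sat1 were higher in AST2 than in the other astrocytes of the same suspension in all 4 suspensions, while Unc13c was higher in the cortical suspensions and had no count in hippocampal AST2. Slc7a10 stood at 1978, 2299.7, 1945 and 3269.7 CPM in AST2 and at 1303, 1402, 1322 and 1351 CPM in the other astrocytes, a log2 difference of 0.79 ± 0.14. The AST2 sums lay above every sum of other astrocytes, with 2H the highest. Sat1 stood at 4285, 3903, 4442 and 3804 CPM against 2887, 2460.4, 2547 and 2399 CPM, a difference of 0.68 ± 0.06, and again no sum of AST2 overlapped one of other astrocytes. Sema4b reached 286, 280.7, 287 and 195.8 CPM against 151.6, 193.96, 153.2 and 172.8 CPM, a difference of 0.63 ± 0.19. Its 2H value was close to that of the other astrocytes, and a single cell held 58.1% of its 1H sum. Unc13c stood at 56.9, 96.4, 0 and 0 CPM in AST2 and at 11.9, 28.3, 6.35 and 4.99 CPM in the other astrocytes. Within the cortical suspensions its log2 differences were 2.26 and 1.77. In hippocampus the other subtypes also had Unc13c in few cells (4.06 and 4.01% of AST1), so that a count of 0 in 32 AST2 cells gives neither a direction nor a size there. Agt was lower in AST2, at 162.9, 122.8, 457 and 299.8 CPM against 389, 338.04, 953 and 911 CPM, a difference of -1.34 ± 0.13. Gfap was lower as well, at 117.75, 84.3, 175.1 and 607 CPM against 200.9, 274.7, 1230.5 and 1112.5 CPM, a difference of -1.53 ± 0.39. Both genes were higher in hippocampal than in cortical sums in either class of cells, yet in each suspension AST2 had the smaller value. All 4 markers thus stood as the label says in cortex, and 3 of the 4 in hippocampal AST2.

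**Figure D1:**
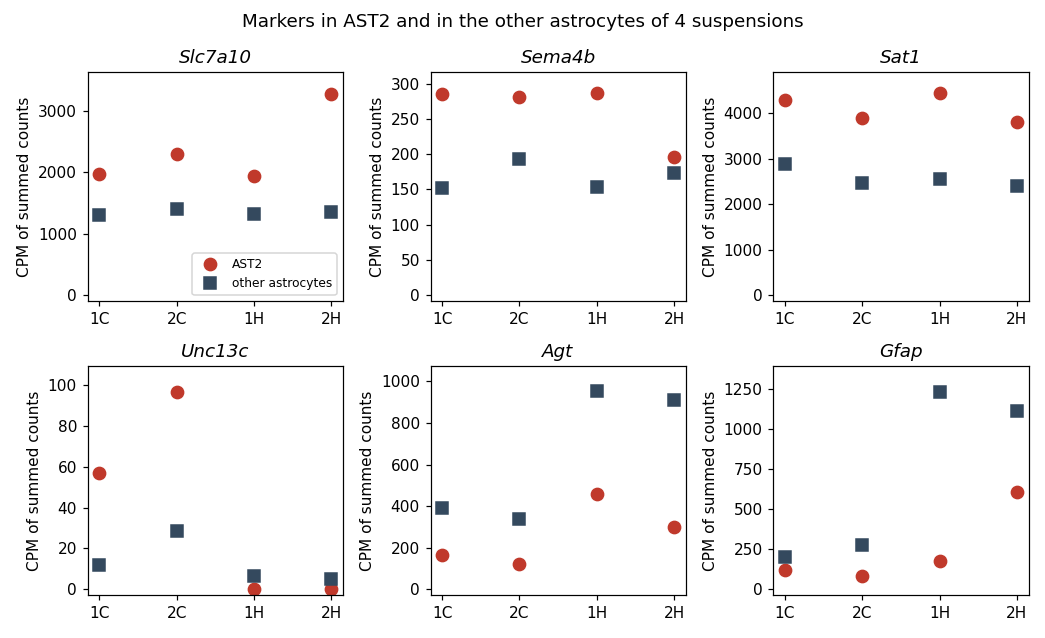
Level of the 4 markers and of Agt and Gfap in the summed counts of each suspension, with the suspension on the x axis and CPM on the y axis. Circles are AST2 and squares the other astrocytes, 1 point per sum, so there is no error bar. Slc7a10, Sema4b and Sat1 are higher in AST2 in all 4 suspensions, Unc13c in 1C and 2C, and Agt and Gfap are lower in AST2 in all 4.

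Compared with AST1 and AST3 apart, the subtypes with most cells beside AST2, the markers did not all separate AST2 from both. Slc7a10 was 0.75 ± 0.15 above AST1 and 0.44 ± 0.12 above AST3 on the log2 scale, and Sat1 0.74 ± 0.08 and 0.41 ± 0.06. Sema4b was 0.89 ± 0.22 above AST1 but its difference to AST3 was 0.10 ± 0.27, so that it did not meet the rule there. Agt was lower against either, by 1.61 ± 0.17 and 1.49 ± 0.14 on the log2 scale. Gfap met the rule against AST1, with a difference of -1.80 ± 0.40, and not against AST3, with -0.85 ± 0.38.

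Genes that all astrocytes share were also expressed in AST2. Of 13 genes common to astrocytes, none met the rule for higher and 1 met that for lower, while of all genes found in more than 25% of cells, as these 13 were, 6.52% were higher and 18.3% lower. The median difference of the list was -0.10, by suspension -0.04, -0.03, -0.31 and 0.14. Slc1a3, the glutamate transporter GLAST, stood at 7997, 8367, 6119 and 7992.5 CPM against 9198, 10192, 10785 and 10797 CPM, a difference of -0.43 ± 0.11. Gja1, the main connexin of astrocytes, stood at 6607.5 to 7116 CPM against 6802 to 7663.5 CPM and differed by -0.08 ± 0.04. Markers of the other cells the gate could hold were low. Summed over the list, 10 neuronal genes reached 23.4, 42.98, 0 and 56.6 CPM in AST2, 8 oligodendrocyte lineage genes 49.1, 99.7, 68.97 and 140.3 CPM, 7 microglial genes 25.9, 12.2, 0 and 63.4 CPM and 7 mural genes 79.97, 169.6, 288 and 1.47 CPM, while 6 endothelial genes stayed at or below 0.215 CPM. In the other astrocytes the same sums ran from 15.1 to 26.996 CPM for neuronal, from 27.9 to 96.4 CPM for oligodendrocyte lineage, from 18.9 to 46.4 CPM for microglial, from 118.1 to 143.4 CPM for mural and from 0.443 to 2.43 CPM for endothelial genes. AST2 sums lay above the whole range of the others for neuronal and oligodendrocyte lineage genes in 2C and 2H, for microglial genes in 2H and for mural genes in 2C and 1H, and their part in the results was not tested. No gene of these 5 lists met the rule in either direction. Among defining markers, the vascular genes Cldn5, Cdh5 and Kdr, the precursor marker Pdgfra and the microglial Aif1 were too low to be tested, and Mbp, Snap25 and P2ry12 had a count in 5.59%, 3.78% and 3.96% of AST2 cells. Pdgfrb, a receptor of mural cells, was the 1 gene of the 5 lists found in more than 25% of cells (25.8% of AST2 and 27.4% of the others), at 77.04, 110.45, 245.7 and 1.37 CPM.

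In single cells, the markers of AST2 differed in how many cells carried them. At least 1 count of Slc7a10 was present in 99.5% of AST2 cells (95% Wilson interval 98.4 to 99.8%), of Sema4b in 98.4% and of Sat1 in 98.02%. All 3 together occurred in 96.0% of AST2, in 72.8% of AST1, in 94.2% of AST3 and in 0.995% of typed cells that are not astrocytes. Their presence therefore did not set AST2 apart from AST3, where only their level was lower for Slc7a10 and Sat1. Unc13c was found in 27.4% of AST2 cells (interval 23.8 to 31.2%), in 4.41% of AST1, 9.51% of AST3 and 12.4% of the typed cells of other kinds. The last value is the level in cells of other types and not a floor, since some of these types are known to make the transcript. Among cortical AST2 cells 26.25% of 1C and 31.45% of 2C had a count, and among the hippocampal ones 0 of 32, which allows a share of up to 9.375%. Most AST2 cells thus had no Unc13c count. The cells with a count ranged from 0.620 to 1192 CPM in 1C and from 0.467 to 1657 CPM in 2C, with medians of 185.2 and 213.3 CPM. Intervals and limits of this kind treat cells as independent draws. They cover counting error over cells only and not the spread between suspensions.

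The pair of Unc13c and Agt, proposed as present and absent in AST2, was also seen cell by cell. Unc13c without Agt occurred in 21.6% of AST2 (18.4 to 25.2%), 1.67% of AST1 (0.937 to 2.97%) and 6.42% of AST3 (4.50 to 9.06%). Both transcripts were found in 5.77% of AST2 cells, and 54.1% had neither. These shares are pooled over suspensions, and AST1 is mainly hippocampal while AST2 is mainly cortical, so the subtypes are given within cortex as well. There Unc13c without Agt was found in 19.6 and 25.8% of AST2, 1.75 and 7.27% of AST1 and 9.09 and 9.27% of AST3 in 1C and 2C. Agt had a count in 25 and 21.6% of AST2, 42.1 and 43.6% of AST1 and 56.5 and 49.01% of AST3. Gfap was present in 19.6 and 14.1% of AST2, 24.6 and 32.7% of AST1 and 28.6 and 33.1% of AST3. In 1C the intervals of Gfap for AST2 (15.1 to 25.1%) and AST1 (15.2 to 37.1%) overlapped. Cells with neither Agt nor Gfap made up 61.7 and 67.8% of AST2, 45.6 and 40% of AST1 and 32.5 and 37.7% of AST3. Pooled over all 4 suspensions, Agt was found in 24.3% of AST2 and 63.8% of AST1 and Gfap in 18.02% and 66.2%, gaps that also hold the difference between regions. Within AST2 the hippocampal cells had Agt and Gfap more often than the cortical cells: 14 of 32 had Agt and 13 of 32 had Gfap, against 23.1% and 16.6%. In the sums of the other astrocytes both genes were higher in hippocampus as well. Slc7a10, Sema4b and Sat1 had a count in all 10 AST2 cells of 1H and all 22 of 2H. Thinned to 50000 gene counts per cell, Sema4b remained detectable in 89.2% of AST2 cells and Unc13c in 25.0%.

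**Figure D2:**
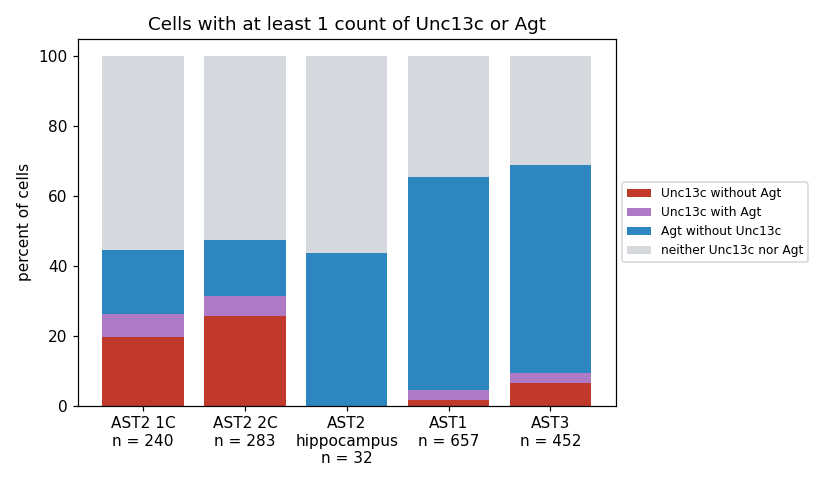
Percent of cells with at least 1 count of Unc13c, of Agt, of both or of neither, as stacked bars, for AST2 of 1C and 2C, the 32 hippocampal AST2 cells, AST1 and AST3 (number of cells under each bar). Unc13c without Agt is largest in cortical AST2 (19.6% and 25.8%) and is not seen in hippocampal AST2.

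AST2 was a cortical class. It made up 52.1% of the typed astrocytes of 1C (240 of 461, 95% Wilson interval 47.5 to 56.6%), 56.7% of 2C (of 499, 52.3 to 60.99%), 2.54% of 1H (10 of 393, 1.39 to 4.62%) and 5.14% of 2H (22 of 428, 3.42 to 7.66%). The cortical mean was 50.5 percentage points above the hippocampal mean, and the groups did not overlap. With 2 suspensions against 2 the exact two-sided permutation test gives p = 0.3333, the smallest it allows. Over the 8 plates of a suspension the share ran from 36.4 to 62.3% in 1C, from 52.9 to 67.7% in 2C, from 0 to 7.69% in 1H and from 1.92 to 7.55% in 2H, so that every cortical plate lay above every hippocampal plate. Of all cells of a suspension, typed or not, the difference was 46.1 points. The list leaves out 33 cells of 1C, whose type is not known here. Sorting, dissociation and survival act on these shares, and their part was not tested.

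**Figure D3:**
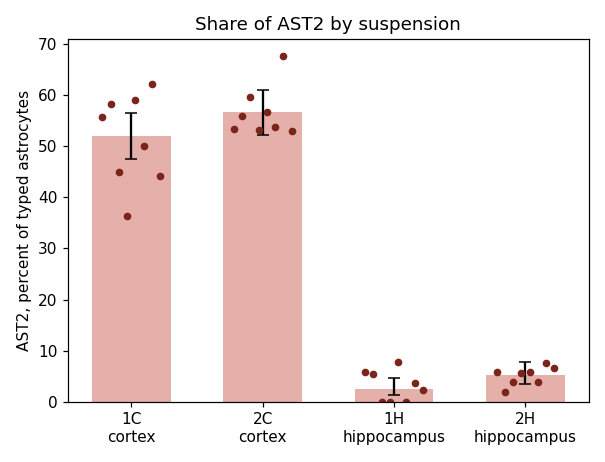
Share of AST2 among the typed astrocytes of each suspension, in percent. Bars give the suspension with its 95% Wilson interval and points its 8 plates; the cortical bars stand at 52.1% and 56.7% and the hippocampal bars at 2.54% and 5.14%.

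Across all genes, AST2 differed from the other astrocytes by modest amounts. Of 19095 tested genes the rule called 0.953% higher and 510 lower (2.67%). Among the 2790 genes with a count in more than 25% of AST2 cells or of other astrocytes, which alone could be called, these are 6.52% and 18.3%. Their median fitted difference was -0.20 on the log2 scale. By suspension it was -0.04, -0.02, -0.42 and -0.19, so that the shift lay in the hippocampal sums of 10 and 22 cells and was near 0 in cortex. Medians of lists of genes are therefore given by suspension too, with sums under 3 counts set at 3 counts. Scaled with the size factors of DESeq2 in place of TMM, 1.25% were higher and 2.07% lower, which left 99.5% of the genes called higher and 77.5% of those called lower. From the cortical suspensions alone, which hold 523 of the 555 cells, the same thresholds gave 320 higher genes (1.68%) and 1.90% lower ones, with 65.4% of the genes called higher and 46.1% of those called lower among them. Without 1H, the suspension with 10 AST2 cells, 1.50% were higher and 474 genes (2.48%) lower. Against AST1 the rule called 0.939% of 17461 genes higher and 403 lower (2.31%), and against AST3 0.911% of 17007 higher and 465 lower (2.73%). Higher against both were 67 genes, 40.9% of those against AST1 and 43.2% of those against AST3; these comparisons share the AST2 sums. Lower against both were 45.2% and 39.1% of the respective genes.

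The 10 genes with the largest positive difference were, except Gm26917, found in 26.1% to 44.9% of AST2 cells. Cdc42ep1, which binds the GTPase Cdc42 and shapes the actin cytoskeleton, led them with 157.1, 109.6, 194.9 and 234.2 CPM against 55.98, 38.3, 52.3 and 63.6 CPM and a difference of 1.70 ± 0.22. The groups did not overlap, but its 1H sum came from a single cell. Dok7, known as the activator of the kinase MuSK at the neuromuscular junction, stood at 182.4 CPM in AST2 of 1C, 222.8 CPM of 1H and 184.2 CPM of 2H against 62.7, 63.4, 69.9 and 61.9 CPM, and its differences of 1.54, 1.40, 1.67 and 1.57 were alike in the 4 suspensions. Disp3, a patched-related sterol-sensing protein, stood at 189.9, 209.8, 182.85 and 235.04 CPM against 70.7, 94.3, 47.8 and 82.1 CPM, a difference of 1.51 ± 0.21. Etnppl, the lyase of phosphoethanolamine and a gene known for astrocytes, stood at 225.8, 236.8, 409.8 and 144.4 CPM against 144.8, 97.7, 89.6 and 72.7 CPM, a difference of 1.27 ± 0.30. Car8, a carbonic anhydrase-related protein without enzyme activity, was mainly a cortical transcript, at 126.55, 174.7, 18.3 and 57.3 CPM against 73.5, 85.2, 10.9 and 9.52 CPM, and its 1H sum again rests on a single cell. Gm26917, a noncoding RNA that was also the most widely detected of the 10 (82.2% of AST2 and 62.9% of other cells), differed by 1.59 ± 0.32. The others were Actr3b (1.35 ± 0.33), Erlec1 (1.34 ± 0.50), Tmem181b-ps (1.32 ± 0.80) and C030005K06Rik (1.29 ± 1.01). Erlec1 had a count in like shares of AST2 cells (28.5%) and of other astrocytes (28.96%). For Erlec1 and Tmem181b-ps the cortical differences alone were 0.50 and 0.59. Tmem181b-ps is a pseudogene by its name, so reads it shares with other copies make its value uncertain.

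Among the genes that were lower, several with the largest fitted difference owe it to hippocampal sums. Nnat, a small membrane protein of the endoplasmic reticulum, was lower everywhere, at 32.2, 42.9, 108.2 and 208.35 CPM against 241.6, 175.3, 446 and 404 CPM, a difference of -1.99 ± 0.35. Id3, an inhibitor of helix-loop-helix factors induced by BMP signals, stood at 458, 324.1, 121.5 and 51.1 CPM against 759, 809.6, 715 and 546 CPM, with differences of -0.73, -1.32, -2.56 and -3.42, smallest in 1C. Lrp4, a receptor of agrin and Wnt modulators, was at 43.9, 42.2, 5.60 and 12.7 CPM against 87.3, 78.5, 85.2 and 97.9 CPM, with a cortical difference of -0.96. Gm5069 stood at 6.63, 1.58, 0.333 and 0.0980 CPM against 20.3, 12.1, 12.01 and 6.28 CPM, and 1 cell held 75.8% of its 2C sum. ENSMUSG00000094518 was at trace level in both classes, at 0.616, 0.449, 0 and 0.131 CPM against 0.778, 0.648, 0.795 and 0.868 CPM. Efcab14 stood at 88.2, 86.5, 6.67 and 6.01 CPM against 152.4, 130.9, 106.5 and 101.02 CPM. Sap18, Prdx4 and Pla2g16 had no count in the 10 cells of 1H, and their differences with that sum set at 3 counts were -0.22, -0.01, -8.11 and -3.46 for Sap18, -1.55, -1.93, -8.83 and -0.64 for Prdx4 and -0.64, -0.14, -9.23 and -2.13 for Pla2g16. In the cortical suspensions alone Prdx4, a peroxiredoxin of the secretory pathway, still met the rule with -1.75, whereas Sap18 differed there by -0.13.

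Of the genes that the authors listed as enriched in AST2, 62 (49.2%) met the rule for higher and none that for lower, with a median difference of 0.43, by suspension 0.45, 0.51, 0.33 and 0.64. This list and those for AST1 and AST3 were chosen by the authors on these cells, AST2 included, so that their directions were fixed by that choice and are no independent evidence. Of 37 genes listed for AST1, 24 were lower and none higher in AST2 (median -0.60, by suspension -0.45, -0.46, -0.79 and -0.73), and of 36 listed for AST3, 11 were lower and 2 higher (median -0.32, by suspension -0.32, -0.25, -0.46 and 0.13). Stat3 (differences -1.34, -1.16, -9.29 and -0.11) and Sept9 (-0.77, -0.25, -8.64 and -0.27) of the AST3 list were lower, with no count in 1H, taken there at 3 counts. Cd9, a tetraspanin of the AST1 list, stood at 102.7, 109.4, 81.4 and 135.1 CPM against 221.6, 242.4, 459 and 512 CPM, a difference of -1.67 ± 0.29. Igfbp2, a binding protein of insulin-like growth factors on the AST3 list, was higher in AST2 than in the other astrocytes (632 to 1062 CPM against 331.03 to 514 CPM, difference 0.96 ± 0.22) but not than in AST3 (0.09 ± 0.14). Lgals3bp, a secreted binding partner of galectins, was among the AST2 genes with the largest difference (259.8 to 582 CPM against 162.7 to 195.3 CPM, 1.10 ± 0.25). F3, tissue factor, was a highly expressed member at 3236, 3333, 2466 and 3596 CPM against 2085, 2265, 1818.5 and 1937 CPM (0.63 ± 0.09) and was named after its value was seen.

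Genes that the study names for AST2 or for functions in which its subtypes differ, among them synapse formation, phagocytosis, ion transport and immunity, were called in part. Gria2, the AMPA receptor subunit that limits calcium entry, was at 575, 589, 792 and 599 CPM against 391, 331.7, 472 and 413 CPM, higher in AST2 by 0.67 ± 0.10 in log2 units without overlap. Mertk, a receptor kinase for the engulfment of dying cells and synapses, was at 887, 779, 992 and 750.0 CPM against 550.2, 553, 399 and 431 CPM, a difference of 0.82 ± 0.15, and met the rule against AST1 and AST3 alike. Slitrk2, a postsynaptic adhesion protein, met the rule with 0.37 ± 0.14, close to the threshold, but its 1H values were nearly equal (325.9 and 322.5 CPM). Tlr3, a receptor of double-stranded RNA, met it with 0.71 ± 0.28 although AST2 and the others stood at 297.3 and 295.6 CPM in 2H. Wfs1, the endoplasmic reticulum protein wolframin, stood at 197.6, 201.25, 275.9 and 205.8 CPM against 141.2, 164.6, 96.6 and 103.8 CPM, a difference of 0.82 ± 0.26. Chrdl1, a secreted factor known to mature synapses by recruiting Gria2, did not meet the rule: it stood at 412, 445, 6.74 and 39.004 CPM in AST2 and 307.1, 372.9, 28.4 and 55.7 CPM in the others, so it followed the region of the cells in both classes. Kcnk1, a K2P potassium channel, had 1244, 1366, 419.8 and 898 CPM against 859, 905, 584 and 564 CPM, above the others in all suspensions but 1H. Ndrg4 showed the same order, with 321.45, 248.3, 34.4 and 194.8 CPM against 199.2, 218.2, 187.2 and 158.15 CPM. Tril, an accessory protein of Toll-like receptors, differed by 0.30 ± 0.07, the same sign in all 4 suspensions but below the size set. Lrtm2 (0.81, 0.45, -0.31 and 0.93), Mfsd2a (0.05, 0.37, -0.34 and 0.69) and Ndp (-0.62, -0.12, -1.01 and 0.14) changed sign between suspensions. Within the cortical suspensions Kcnk1 (0.55), Lrtm2 (0.62) and Ndrg4 (0.43) met the rule.

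Amino acid handling differed gene by gene. Of 18 tested genes for neutral amino acid and serine transport and synthesis, 3 were higher and 3 lower in AST2 (median -0.69, by suspension 0.02, -0.09, -0.89 and -0.58). Over all 19095 genes taken the same way the median was -0.48, by suspension 0.01, -0.04, -0.997 and -0.51. Of these 18 genes 10 were found in more than 25% of cells and could be called, as against 6.52% higher and 18.3% lower over all such genes, shares that hold for the lists that follow. Besides Slc7a10, the glutamine carrier Slc38a3 was higher, at 1143, 1282, 890.25 and 986 CPM against 712, 802, 595 and 616 CPM (0.66 ± 0.07), with nearly equal differences in the 4 suspensions. Slc6a9, the glycine transporter GlyT1, was higher at 107.6, 106.85, 223.3 and 266.9 CPM against 81.3, 60.5, 80.98 and 87.9 CPM (1.07 ± 0.28), more so in hippocampal sums. Phgdh, the enzyme that commits glycolytic carbon to serine, was lower at 782.5, 759, 221.2 and 441 CPM against 1287, 1337, 1300.5 and 1157.5 CPM (-1.36 ± 0.34). Psph, the last enzyme of that route, was lower too (77.9 to 133.4 CPM against 183.3 to 233.2 CPM, -0.99 ± 0.18), whereas Psat1 between them differed by -0.36 ± 0.20 and did not meet the rule. Slc7a11, the cystine and glutamate exchanger, was lower with differences of -0.42, -0.81, -4.92 and -0.77, its 1H sum resting on a single cell. Srr, the racemase that makes D-serine, was at 20.4, 38.4, 0 and 14.2 CPM in AST2 and was not called.

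Among polyamine genes Sat1 and Atp13a4 were called higher and Oaz1 lower. Of 14 tested, of which 8 could be called, 2 were higher and 1 lower (median -0.52, by suspension -0.06, 0.08, -0.99 and 0.32), where 6.52% and 18.3% of all genes that could be called were higher and lower. Atp13a4, an ATPase of the polyamine transporter family, was higher at 410.2, 411, 441 and 570.2 CPM against 279.1, 205.5, 341.4 and 306.2 CPM (0.71 ± 0.15). Oaz1, the antizyme that marks ornithine decarboxylase for breakdown, was lower with differences of -0.27, -0.10, -1.20 and -0.35, largest in 1H; in the cortical suspensions alone it was -0.20 and not called. Sat1 alone made up most of the summed level of the list, which was 5836, 5412, 6745 and 5875 CPM in AST2 and 4242.5, 3677.5, 3845 and 3629.7 CPM in the others.

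Lipid genes gave a mixed picture with steady single members. Of 20 genes of sterol synthesis 1, Dhcr7, was higher and none lower (median -0.05, or 0.04 with DESeq2 size factors, by suspension 0.29, 0.11, -0.12 and -0.11). Dhcr7, the last reductase before cholesterol, stood at 748, 687, 732 and 449 CPM against 454, 455, 343.65 and 346.9 CPM (0.69 ± 0.14). Msmo1 had the same sign everywhere (0.44, 0.34, 0.19 and 0.27) but was smaller than the rule asks. The summed level of the list, without TMM, was 8388, 7727, 6705 and 5620.2 CPM in AST2 and 6341, 6506, 5377 and 5238 CPM in the others. On that scale it was higher in AST2 in each suspension, but the medians above, with TMM, were below 0 in 1H and 2H. The order of the sums with TMM was not examined. Of 16 genes of sterol sensing and lipoprotein uptake 1 was higher and 3 lower (median -0.34, by suspension 0.07, -0.11, -0.74 and -0.21). Insig1, which holds back the sterol sensor, was higher at 804, 739, 847 and 714 CPM against 548, 390.2, 631 and 528 CPM (0.58 ± 0.12). Apoe, the main lipoprotein of astrocytes, was lower at 21306, 22794, 22835 and 26388 CPM against 33130.0, 34513, 40577 and 40207 CPM, a difference of -0.67 ± 0.05 that was largest in 1H (-0.83). Clu, another apolipoprotein, chosen after its value was seen, was lower as well (-0.81 ± 0.09). The lysosomal cholesterol carriers Npc2 (-0.09, -0.19, -2.23 and -1.19) and Npc1 (-0.11, -0.19, -8.71 and -1.09, with 1H at 3 counts) met the rule for lower through their hippocampal sums and differed by -0.15 and -0.17 in cortex. Among 16 genes of fatty acid synthesis Fasn was higher (0.06, 0.21, 1.14 and 0.39) and Fads2 (-0.56, -0.45, -0.09 and -0.53) and Scd2 (-0.23, -0.07, -1.08 and -0.62) lower, with a median of 0.02, by suspension 0.25, 0.13, -0.43 and 0.17; for Fasn and Scd2 the cortical differences alone, 0.12 and -0.16, did not reach the rule.

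Transmitter uptake and ion buffering genes were called in both directions, beside 6.52% higher and 18.3% lower over all genes that could be called. Of the genes for glutamate 8 could be called, of those for GABA 8 and of those for potassium and the sodium pump 7. Of 14 genes for glutamate, Gria2 was higher and Slc1a3 and Glud1 were lower (median -0.35, by suspension -0.03, 0.29, -0.87 and -0.12). Glud1, the mitochondrial glutamate dehydrogenase, stood at 831, 888, 483 and 756 CPM against 1181, 1104, 1158 and 1231 CPM (-0.69 ± 0.17). Slc1a2, the transporter GLT-1, differed by -0.26 ± 0.08 and Glul, glutamine synthetase, by -0.18 ± 0.21, neither meeting the rule. Of 14 genes for GABA, Gabra2 was higher (1.45, 0.00, 1.79 and 0.60) and Gabbr1 lower (-0.33, -0.23, -2.05 and -0.59), with a median of -0.04, by suspension -0.02, -0.04, 0.29 and -0.26. Gabra2 levels were equal in 2C (46.5 and 46.4 CPM). Of 13 genes for potassium buffering and the sodium pump, Kcnj10 was higher and none lower (median -0.02, or 0.07 with DESeq2 size factors, by suspension 0.46, 0.27, -0.48 and 0.03). Kcnj10, the inward rectifier Kir4.1 that carries most potassium uptake of astrocytes, stood at 151.7, 143.8, 289.2 and 266.2 CPM against 90.1, 97.6, 183.9 and 133.5 CPM, a difference of 0.74 ± 0.17 that met the rule against AST1 and AST3 as well. Its hippocampal level was above the cortical one in both classes.

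Thyroid hormone genes gave 2 higher members of 12 tested and none lower (median -0.41, by suspension 0.12, 0.31, -2.51 and 0.25), where 5 of the 12 were found in more than 25% of cells; of all genes so detected 6.52% were higher and 18.3% lower. Dio2, the deiodinase that activates thyroxine, stood at 390.4, 428, 658 and 547 CPM against 327.03, 343.8, 162.5 and 198.05 CPM (1.01 ± 0.36), with most of the difference in hippocampal sums and 0.27 in cortex alone. Slco1c1, a carrier of thyroxine, was at 2194, 2297, 1469 and 2198 CPM against 1631, 1672, 1178 and 1166 CPM (0.53 ± 0.11). Growth factor genes gave 4 higher of 14 and none lower (median 0.17, by suspension 0.22, 0.22, 0.36 and 0.11), beside the same shares of 6.52% and 18.3% over all genes that could be called. The median of their fitted differences was 0.07, and -0.02 without 1C. Egfr, the receptor of EGF, stood at 236.8, 208.4, 397 and 283.7 CPM against 125.5, 165.7, 137.7 and 151.8 CPM (0.92 ± 0.23). Dusp6, a phosphatase induced by ERK, was at 281.97, 226.2, 222.9 and 153.8 CPM against 132.7, 150.9, 86.2 and 134.6 CPM (0.81 ± 0.25), Etv4 differed by 0.58 ± 0.37 and Spry2 by 0.39 ± 0.10. The last 3 are known as feedback or target genes of ERK, and against AST3 none of these 3 met the rule. In the Notch list Jag1, a ligand, was the 1 higher gene of 11 (0.92, 0.72, 0.73 and 0.07, median -0.57, by suspension 0.01, -0.22, -2.09 and 0.04). In the list of purine and monoamine receptors the histamine receptor Hrh1 (217.4 to 363.1 CPM against 132.96 to 186.9 CPM, 0.82 ± 0.17) and the adenosine receptor Adora2b (0.04, 0.14, 1.17 and 0.68) were higher, 2 of 12 (median 0.30, by suspension 0.02, 0.39, 0.02 and 0.27, but -0.03 without 2H). The cortical difference of Adora2b was 0.08.

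Of 21 secreted and adhesion molecules of the synapse, Slitrk2 was higher and Sparc, Tgfb2, Gpc6 and Sparcl1 were lower (median -0.71, by suspension -0.28, -0.28, -1.01 and -0.41). Of these 21 genes 13 could be called, and over all genes that could be called 6.52% were higher and 18.3% lower. Sparcl1, or hevin, which bridges the adhesion proteins of forming synapses, stood at 5524, 5871.5, 5471 and 7807.5 CPM against 8338, 8450.2, 9235 and 9108 CPM (-0.52 ± 0.09). Sparc, known to antagonise hevin, was at 58.6, 64.4, 359.7 and 343.8 CPM against 161.8, 121.6, 530.35 and 657 CPM (-0.97 ± 0.18). Tgfb2 had differences of -0.63, -0.40, -0.24 and -2.08 and the glypican Gpc6 of -0.23, -0.28, -1.10 and -1.21. Of 24 semaphorins, plexins and neuropilins tested, Sema4b and Sema6d (0.15, 0.40, 1.32 and 0.56) were higher and none was lower, and only 4 of the 24 had a count in more than 25% of cells (median -1.42, by suspension 0.01, 0.21, -2.98 and -2.21). Of 12 genes of phagocytosis Mertk was higher and Mfge8, a bridging protein to dying cells, lower (5624 to 8631 CPM against 6940.1 to 11058 CPM, -0.36 ± 0.04; median -0.24, by suspension 0.12, -0.05, 0.01 and -0.29). Megf10, another engulfment receptor, differed by 0.27 ± 0.23 and was not called. Of 24 genes of vesicle priming and fusion none met the rule (median -1.17, by suspension -0.07, 0.08, -2.44 and -1.31), and only 5 of them were found in enough cells to be called. The relatives of Unc13c were scarce: Unc13a had 6.75, 5.72, 0 and 0 CPM, Unc13b 19.6, 10.6, 0 and 2.35 CPM and Unc13d 1.43, 0.175, 0 and 0 CPM in AST2.

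Of 23 genes of glycolysis and glycogen, of which 18 could be called, 2 were higher and 2 lower (median -0.13, by suspension -0.10, -0.21, -0.37 and -0.13). Over all genes that could be called 6.52% were higher and 18.3% lower. The glycogen phosphorylases went apart: Pygm, the muscle form, was higher at 493, 442, 477 and 485 CPM against 384, 325.9, 292.9 and 311.7 CPM (0.54 ± 0.11), and Pygb, the brain form, was lower at 1015, 992, 568 and 838 CPM against 1455.5, 1425, 1309 and 1299 CPM (-0.72 ± 0.14). Pygm did not differ from AST3 by the rule (-0.06 ± 0.15). The glucose carrier Slc2a1 (0.04, 0.13, 0.84 and 0.73) was higher and Aldoa (-0.12, -0.28, -1.19 and -0.44) lower, both mostly through hippocampal sums. No protein-coding gene of the mitochondrial genome met the rule among 13, and they summed to 31213, 29688, 27605 and 29139 CPM in AST2 and 24130.0, 23821, 27883 and 28396 CPM in the others. On this scale without TMM the cortical sums were above those of the other astrocytes, the 2H sum slightly above and the 1H sum slightly below. The median difference of the 13 genes, with TMM, was 0.34, 0.40, -0.03 and -0.13 by suspension, so below 0 in 1H and 2H. Reads shared with nuclear copies make these counts uncertain.

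Genes of reactivity and of the early response to stimulation were mostly in too few cells to be called. Gfap was the only called gene of 14 for intermediate filaments and reactivity, and it was lower (median -3.08, by suspension -0.66, -0.91, -3.43 and -5.11, in a list with 1 member above 25% of cells). Of 22 immediate early genes, which dissociation of tissue is known to induce and of which 3 were found in more than 25% of cells, Jun was lower (107.1, 77.1, 137.4 and 52.1 against 318.1, 253.8, 146.4 and 161.7 CPM, -1.27 ± 0.35) and none was higher. Summed, they reached 765, 601, 1152 and 1009.6 CPM in AST2 and 2292, 1952, 852 and 1256 CPM in the others, lower in AST2 in 1C, 2C and 2H and higher in 1H. Of 16 genes of glucocorticoid and clock output none was called (median -0.25, by suspension 0.06, 0.39, -0.84 and 0.18). Of 21 genes known for cortical regions or layers, 13 of which could be called, Igfbp2 was higher and 7 were lower, beside 6.52% and 18.3% over all genes that could be called (median -0.73, by suspension -0.55, -0.69, -1.55 and -0.59), including Agt, Id3, Nnat, Sparc and Mfge8 above, and Hopx (3.47 to 13.6 CPM against 20.6 to 49.9 CPM, -1.96 ± 1.07). None of 4 genes of chromosome Y met the rule (median -0.42, by suspension 0.41, 0.83, -0.79 and -2.16).

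Several members of a list of nuclear noncoding RNAs were higher in AST2, while their place in the cell was not measured. Of 10 tested 4 met the rule for higher and none that for lower, with a median of 0.66, by suspension 0.59, 1.18, 0.35 and 0.76. Only 5 of them were in enough cells to be called, and over all such genes 6.52% were higher and 18.3% lower. Malat1, an abundant RNA of nuclear speckles, stood at 13916, 12355, 13147 and 15828 CPM against 8718.5, 7963, 9949 and 10207 CPM (0.59 ± 0.06). Gm3764 was at 1195, 1215, 1497 and 1479 CPM against 767, 811, 1010.3 and 951 CPM (0.61 ± 0.07) and Mir124-2hg, the host of a microRNA gene, at 290.9, 273.3, 180.6 and 270.1 CPM against 154.6, 170.2, 146.2 and 138.2 CPM (0.72 ± 0.18). Against AST1 alone Malat1 differed by 0.34 ± 0.08 and did not meet the rule. The counting ignored strand as far as the sources used here tell, so reads of overlapping genes cannot be told apart. The share of reads outside exons was higher in AST2 too, and over cortical AST2 cells it went with Malat1, as described below. The other genes of the list were not set against it, and its part in these values was not tested.

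**Figure D4:**
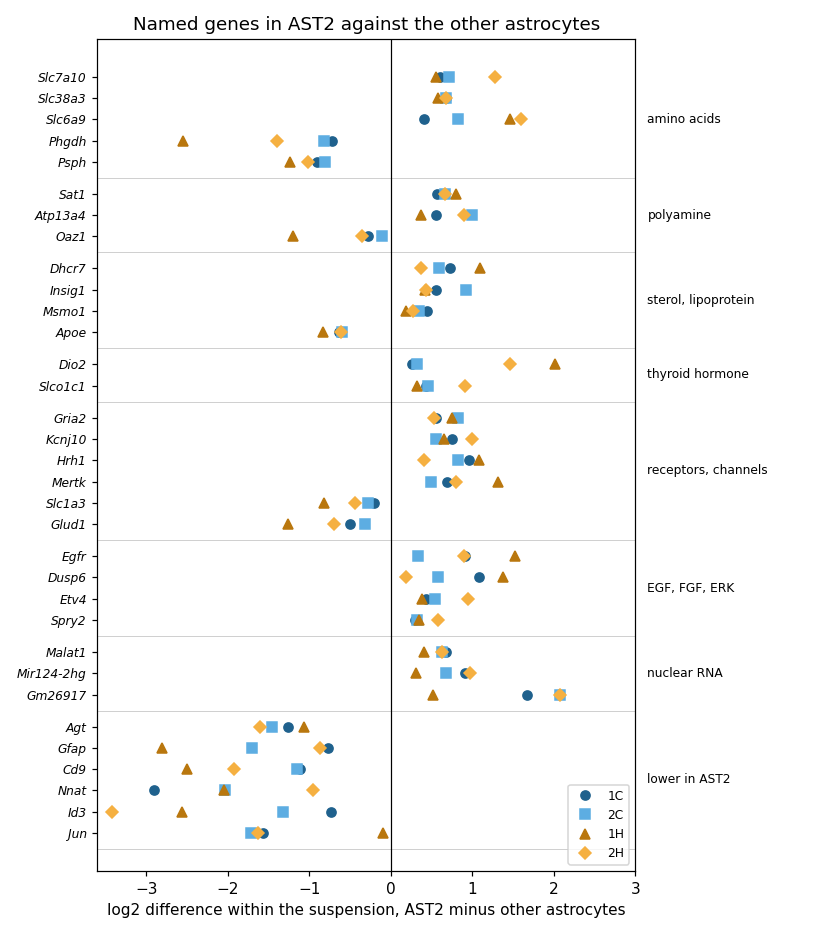
Log2 difference between AST2 and the other astrocytes within each suspension (x axis) for named genes grouped by role (y axis), 1 symbol per suspension. The genes in the lowest block are lower in AST2 in all 4 suspensions, and the hippocampal symbols lie further from 0 than the cortical ones for Phgdh and Dio2, while for Gfap only 1H does.

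Measures of each cell as a whole differed between AST2 and the other astrocytes in the same direction in every suspension for 4 of 5. Total counts, the ERCC ratio and reads outside exons were not themselves clustered and were tested, while the number of genes and the mitochondrial percent come from the clustered counts and are descriptions. The tested measures are still tied to those counts. Total counts are their sum, and over cortical AST2 cells Malat1 went with the other 2 measures, as given below. Their p-values are therefore not independent of how AST2 was found. The ratio of gene counts to ERCC counts, a measure of the RNA per cell, had medians over AST2 cells of 4.43, 4.41, 4.05 and 4.17 on the log2 scale and of 4.73, 4.73, 4.35 and 4.44 over the other astrocytes. AST2 was lower by 0.30 ± 0.03 (SD, n = 4 suspensions), with an exact sign-flip permutation p of 0.125. It was not lower than AST1 in cortex, where AST1 had medians of 4.43 in 1C and 4.25 in 2C, and was lower than AST3 in all 4 suspensions. The percent of reads outside exons or on more than 1 gene was 19.7, 18.4, 19.5 and 22.3 in AST2 and 15.4, 14.4, 17.55 and 17.2 in the others. That is 3.84 ± 1.33 percentage points higher (SD, n = 4, exact p = 0.125). With each cell thinned to 50000 gene counts, medians of 1691, 1613, 1449 and 1507 genes were found in AST2 and of 1918, 1875, 1595 and 1641 in the others. AST2 cells thus had 192 ± 62.2 fewer genes (SD, n = 4). The percent of gene counts from the mitochondrial genome was higher by 0.485 ± 0.536 points (SD, n = 4), nearly all of it in the cortical suspensions. Gene counts per cell were 0.16 ± 0.12 lower on the log2 scale (SD, n = 4, exact p = 0.25), with nearly equal medians in 2H. The two-sided test over 4 suspensions cannot go below 0.125, and adjusted over all 5 measures the smallest value was 0.156. Set beside AST1 and AST3, AST2 lay between AST1 and AST3 in thinned gene number in the cortical suspensions and below both in the hippocampal ones (medians in 1C 1645 for AST1, 1691 for AST2 and 2059.5 for AST3). In reads outside exons it stood above both in all 4 suspensions (in 1C 15.7, 19.7 and 15.5%).

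**Figure D5:**
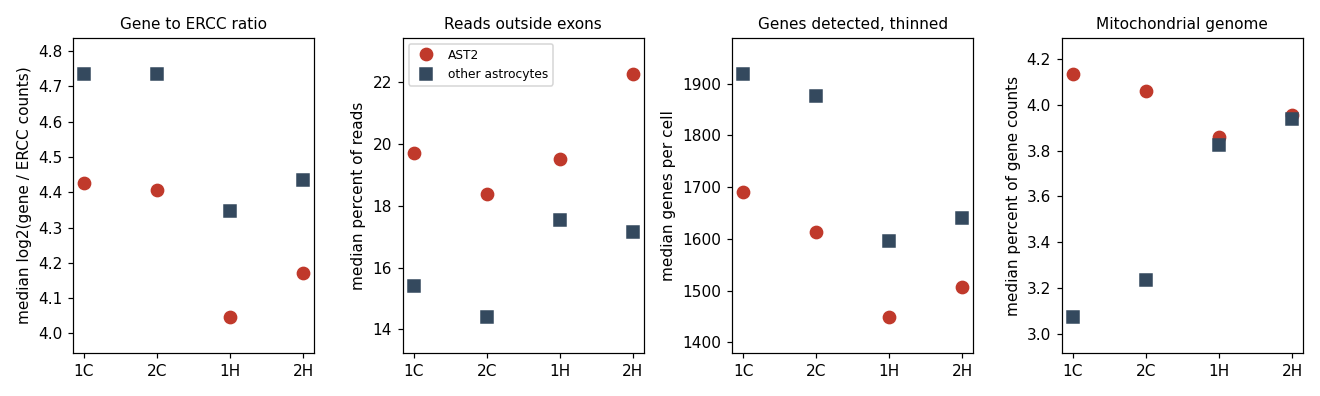
Medians over cells of 4 measures in each suspension (x axis), circles for AST2 and squares for the other astrocytes: log2 ratio of gene to ERCC counts, percent of reads outside exons, genes per cell after thinning to 50000 counts, and percent of counts from the mitochondrial genome. The y axes do not start at 0. AST2 is lower in the gene to ERCC ratio and genes detected and higher in the percent of reads outside exons in all 4 suspensions.

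Among cortical AST2 cells themselves, levels of the markers spread widely. Over the 240 cells of 1C, Slc7a10 had a median of 1805 CPM with 10th and 90th percentiles of 854 and 3617 CPM, and over the cells of 2C a median of 2149.9 CPM with 932 and 3699.8 CPM. Sat1 had medians of 3649.9 and 2928 CPM and 90th percentiles of 8029 and 8051 CPM. Sema4b was skewed further, with medians of 101.2 and 120.5 CPM and 90th percentiles of 890.1 and 862 CPM. The 3 markers did not follow each other from cell to cell: Spearman's rho of Sat1 with Slc7a10 was 0.06 in 1C and -0.07 in 2C, and of Slc7a10 with Sema4b -0.07 in 1C and 0.01 in 2C. Cells of a suspension share its preparation, and these coefficients are descriptions over thinned counts.

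Ranked by variance over that of genes of like mean, with 7039 genes compared, the 10 genes of highest mean rank over 1C and 2C were Slc25a40, C8g, Rsbn1, Ppp2r3c, Il1rapl1, Irf2bp2, Upf2, Cnbd2, Gm3365 and E530011L22Rik. Each had a count in few thinned cells, from 5.30% for Slc25a40 in 2C to 11.7% for Gm3365 in 1C, and 1 cell held up to 43.8% of a cortical sum, for Upf2 in 2C. Of the 7039 genes compared, 11 were in the top 50 of both suspensions. Among abundant genes, chosen after their ranks were seen, Sat1 ranked 30 and 47, Apoe 32 and 56, and Malat1 60 and 97 in 1C and 2C. Apoe and Clu, both apolipoproteins, went together over cells, with a rho of 0.64 in 1C and 0.50 in 2C, and Apoe with Mfge8 with 0.43 in 1C and 0.39 in 2C. Malat1 followed the percent of reads outside exons (rho 0.71 in 1C and 0.75 in 2C) and went against the gene to ERCC ratio (-0.54 in 1C and -0.53 in 2C). Apoe went against Malat1 (-0.31 in 1C and -0.36 in 2C). Between AST2 and the other astrocytes these measures also differed in the directions given above.

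Whether AST2 cells of hippocampus differ from those of cortex was tested on the 4 AST2 sums. The region of a cell was not an input of the subtype, but cells were assigned by their expression, so hippocampal AST2 cells were chosen for their likeness to the subtype and the test holds only for cells so chosen. No gene of 14847 (0%) was called by the quasi-likelihood test of edgeR at an adjusted p under 0.05, the lowest adjusted p being 0.139. Unadjusted, 0.828% of genes were higher and 3336 genes (22.5%) lower in hippocampal AST2 at p under 0.05. DESeq2 called 553 higher and 3785 lower (3.72% and 25.5%). A fit with AST1 and AST3 that shares 1 estimate of spread called 27 and 738 of 18406 genes (0.147% and 4.01%). Without 1H or without 2H genes were called both ways, mostly lower. Each of these fits leaves a lone hippocampal sum that is assumed to vary like the cortical ones. Without 1C or without 2C edgeR called no gene, and 13 and 16 were higher and 17 and 16 lower at an unadjusted p under 0.05. With the cortical suspensions reduced to as many cells as 2H had, again none of 10171 genes was called, with 1.31% higher and 411 genes (4.04%) lower unadjusted. For the markers Slc7a10 (0.31 ± 0.30), Sema4b (-0.20 ± 0.29) and Sat1 (0.04 ± 0.12), which define the cells, the log2 differences between regions are descriptions. Unc13c had no count in hippocampal AST2, with the limit from 32 cells given above.

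Several genes, chosen after their values were seen, had AST2 levels that did not overlap between the regions. With 2 sums per region an exact two-sided permutation test cannot go below p = 0.3333. The share of all genes without overlap was not counted, so these genes are examples only. Sparc stood at 58.6, 64.4, 359.7 and 343.8 CPM in AST2, higher in the hippocampal sums by 2.54 ± 0.25 (adjusted p = 0.139). The other astrocytes showed the same order, 161.8, 121.6, 530.35 and 657 CPM. Fos, an immediate early gene, stood at 51.4, 26.2, 241.3 and 272.8 CPM in AST2 and at 601, 481, 205.3 and 325.1 CPM in the others, higher in hippocampal than in cortical AST2 but not so in the others. It had a count in only 10.3% of AST2 cells, and the hippocampal sums hold 10 and 22 cells. Igsf1, an immunoglobulin membrane protein, was at 8.54, 2.97, 268.8 and 195.8 CPM in AST2 and 34.7, 10.6, 28.9 and 25.04 CPM in the others. Oaf (679.7, 752, 203.1 and 234.7 CPM), the pump subunit Atp1b1 (746, 884, 150.3 and 221.25 CPM) and Chrdl1 (412, 445, 6.74 and 39.004 CPM) were lower in the hippocampal AST2 sums. In the other astrocytes Oaf was at 605, 673, 439 and 454 CPM, Atp1b1 at 467, 555, 342.4 and 320.3 CPM and Chrdl1 at 307.1, 372.9, 28.4 and 55.7 CPM, lower in hippocampus in each case. None of these passed the edgeR test.

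The region effect of AST2 was then set against the mean region effect of AST1 and AST3 in an interaction test over 18406 genes. It called a single gene (0.00543%), Pamr1, a secreted protease-like protein linked to muscle regeneration, with an adjusted p of 0.0331. Pamr1 stood at 169.8, 196.02, 0 and 0 CPM in AST2, 114.3 to 150.9 CPM in cortical and at most 134.4 CPM in hippocampal AST1 and 205.2, 196.1, 160.9 and 125.35 CPM in AST3 (library sizes scaled by TMM in this fit). It was thus without a count in hippocampal AST2 and had counts in all other sums. It had a count in 25.0% of the AST2 cells of 1C and 26.9% of those of 2C, and with 32 hippocampal cells 0 cells allow a share of up to 9.375%. Without the suspension block 634 genes were called (0.0217% higher and 3.42% lower), and DESeq2 called 2624 (1.11% and 13.1%). With AST3 alone as comparator edgeR called none of 17007 genes, with a lowest adjusted p of 0.532. At an unadjusted p under 0.05 this edgeR test had 93 higher and 1412 lower genes (0.547% and 8.30%). Leaving out 1C, 2C or 1H left no call, with 13, 13 and 474 genes in one direction and 1074, 1039 and 2414 in the other at an unadjusted p under 0.05. Without 2H there were 2289 calls.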

How the data were processed

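Single astrocytes of 4 suspensions (1C, 2C, 1H, 2H) were measured by Smart-seq2. The authors deposited a raw read count for each gene in each cell, made from uniquely mapped reads with FastQC 0.11.4, STAR 2.5.2b (GRCm38.p5) and HTSeq, without molecular identifiers. Of 2031 labelled samples 2030 had counts. Reads outside exons or on more than 1 gene made up 17.6% of these and the gene counts and stayed out of library sizes, as did 92 ERCC spike-ins. Gene symbols were found for 49412 of 49671 identifiers. No column of per-sample values was left unused.

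AST2 cells were those that the study's cell list assigns to this subtype, which the authors obtained by clustering the same counts. Counts were summed per suspension and class and fitted with edgeR 4.0.16 (R 4.3.3) by quasi-likelihood on TMM-scaled library sizes, with the suspension as a block for AST2 against other astrocytes, since both come from the same cells in suspension, and adjusted by the Benjamini-Hochberg method for region and interaction. Residual degrees of freedom were 3, 2 and 4. The suspensions of a region came from different mice and were prepared in parallel in separate tubes. P-values for region and for shares measure the spread between these suspensions. Those for the interaction, fitted with the suspension as a block, and for per-cell measures rest on how differences within a suspension vary between suspensions. The numbers 1 and 2 do not pair cortex with hippocampus (correlation of deviations 0.0199 over 2470 genes). Per-cell measures and shares were compared by exact permutation with Python 3.11.15, numpy 2.4.6, scipy 1.17.1 and pandas 2.3.3, and figures were drawn with matplotlib 3.10.9. Sums under 3 counts were set at 3 counts for medians of lists.

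Named genes were the 4 markers and genes the study names for AST2 or for functions that differ between subtypes, the 10 of largest difference each way, up to 4 called members and the name-giving members of each of 35 lists (665 of 665 members matched), the called genes of the region and interaction tests, and the 10 most variable genes; any other is said to be chosen after its values were seen. Some genes that this rule names are not reported here. The members and the lists were chosen with earlier results of these data known. Alternatives were the size factors and test of DESeq2 1.42.0, limma 3.58.1 on mean log2 values of cells, other comparators, filters and folds, thinning to 50000 counts, and leaving out each suspension; the restriction to cortical suspensions was chosen after seeing the data.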

Additional observations from a re-analysis of the deposited data

Results flagged for a closer look

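Of 105 groups of 4 to 8 values, 15 held a value far from the rest by Dixon's test, where chance flags about 1 in 20. In 1H, with 10 AST2 cells, the log2 difference between AST2 and the other astrocytes stood apart for Apoe (-0.83), Jun (-0.091), Kcnk1 (-0.48), Malat1 (0.40), Ndrg4 (-2.44), Pygb (-1.20) and Slc7a11 (-4.92), and, with no count there and the sum taken at 3 counts, for Npc1 (-8.71), Prdx4 (-8.83), Sept9 (-8.64) and Stat3 (-9.29). In 2H it stood apart for Car8 (2.59), Spry2 (0.58) and, taken at 3 counts, Rsbn1 (-5.38). On 1 plate of 2C AST2 made up 67.7% of the astrocytes, apart from the other 7.

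Both cortical suspensions differed one way and both hippocampal ones the other way, a difference that was not tested, for 4 genes. The mean log2 differences were 0.34 in cortex and -1.29 in hippocampus for Chrdl1, 0.61 and -3.45 for Gm3365, -0.47 and 1.89 for Irf2bp2, and 2.01 and -5.33 for Unc13c, with the sums under 3 counts, those of Unc13c in hippocampal AST2 and of Gm3365 in AST2 of 1H, taken at 3 counts. For Unc13c, of which the other hippocampal subtypes also had a count in few cells (4.06 and 4.01% of AST1), the count of 0 in 32 cells gives no direction. For Pamr1 the region effect of AST2 differed from that of AST1 and AST3 by edgeR's quasi-likelihood interaction test with an adjusted p of 0.0331, and this call was absent without 1C, without 2C or without 1H.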

How the results depend on the processing

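Of 544 values of list medians under an alternative 499 moved by less than the spread between suspensions, as did 54 of 64 for the markers. This spread is the SD over the suspensions of values in which sums under 3 counts were not set at 3 counts. It is wide for lists of scarce genes, such as the semaphorins with medians of 0, 0.21, -8.03 and -2.20. For such lists an alternative could hardly exceed it, so the count of 499 says little about them. Another 4 of the 64 marker values changed sign. For shares of cells 20 of 24 moved by less than the counting error of the pooled share, taken from its Wilson interval. Of the 19095 tested genes, those higher in AST2 were 0.592% at 1.5-fold, 2.66% with no minimum share of cells, 1.68% in the cortical suspensions only and 1.17 to 1.50% with a suspension left out; those lower were 12.9% with no minimum share and 2.48 to 3.56% with a suspension left out. Without the suspension as a replicate block they were 0.953% and 2.65%. In hippocampal against cortical AST2, DESeq2 called 553 genes higher and 3785 lower, the shared fit 27 and 738, and leaving out a suspension gave 0 to 877 and 0 to 5419. With the suspension number as a replicate block edgeR called 0 and 0, with 34 and 72 at an unadjusted p under 0.05. The interaction called 2624 genes by DESeq2, 634 with no replicate block, 0 with AST3 only, 2 in thinned cells and 0 to 2289 with a suspension left out. Sema4b was found in 89.2% of thinned AST2 cells and at 10 CPM or more in 95.5%. Unc13c, fitted at -2.83 over all suspensions with hippocampal sums of 0, came to 0.61 as a mean over cells, -7.73 to 0.44 with a suspension left out (0.44 without 1H, 0.43 without 2H) and 2.00 in the cortical suspensions only. As means over cells of log2(CPM + 1), Slc7a10, Sema4b and Sat1 differed by 1.99, 1.41 and 1.33. The cause of these shifts was not tested. Medians of fitted differences changed sign for several lists. Among them were the purine and monoamine receptors, from 0.30 to -0.03 without 2H, and the growth factor list, from 0.07 to -0.02 without the block and without 1C. The 10 and 22 hippocampal cells limit every value that rests on them.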
